A study of Homo sapiens with 4 samples.

Results

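The circadian clock genes PER1, PER2, PER3, CRY1, CRY2, CLOCK, NR1D1, NR1D2, BHLHE40 and BHLHE41 were examined in RNA-seq data from MDA-MB-231 Fluc cells. These genes were chosen by symbol, and all 10 had a row among the 13957 genes of the deposited table. MDA-MB-231 cells derive from a breast cancer without hormone receptors or amplified HER2 (triple-negative), and the Fluc derivative carries an inserted luciferase gene for imaging. For 2 h, 2 samples received 50 μM cordycepin (3′ deoxyadenosine) and 2 received DMSO as the vehicle control. The labels do not say whether the duplicates came from separate cultures. Total RNA was depleted of ribosomal RNA and sequenced as stranded libraries with 75 bp paired-end reads. The table holds no value for a single library. Its level is the authors' mean over libraries, a log2 CPM (read count scaled to library size, on the log2 scale), so treated and control cells are combined in every level below. The columns that compare cordycepin with vehicle are the authors' own results and were not used. Therefore no level is given for either group, no SD can be given, and whether cordycepin changed a clock gene was not tested.

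The mammalian clock is a feedback loop of transcription. CLOCK and its partner BMAL1 bind E-box sequences and activate the period, cryptochrome, REV-ERB and DEC genes. The PER and CRY proteins then repress CLOCK and BMAL1, the REV-ERB receptors repress BMAL1, and the DEC proteins compete at E-boxes. In a culture dish each cell keeps its own phase unless the population is synchronised, for example by serum, and no synchronising step is described in the labels for these samples.

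The sequences through which the loop is read were located first, in promoter windows from RefSeq on GRCh38.p14. Each window ran from 250 bases before to 50 after an annotated gene start. All 10 symbols matched, with 14 windows, since PER3, CRY2, CLOCK and NR1D2 each had a second start. The E-box, CACGTG, was found in 4 of the 14 windows, of PER1, NR1D2, BHLHE40 and BHLHE41. Among all genes it was in 7.26% of the 35116 windows and for 8.77% of the 27305 symbols. The variant E'-box, CACGTT, was searched on both strands and lay in 5 of the 14 windows, of PER2, CRY1, CRY2, CLOCK and NR1D1. It was in 5.34% of all windows and for 6.44% of all symbols. These stretches are shown because every clock gene listed except PER3 held one or the other of these motifs, on the strand of the gene with the motif in capitals.

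PER1 (chr17:8152561-8152588): gcacccaggtcCACGTGcgcccgtgtgt
NR1D2 (chr3:23945955-23945982): gcgggcggggaCACGTGaggccgctcgg
NR1D2 (chr3:23946005-23946032): ggccgcagggaCACGTGggggcgggggc
BHLHE40 (chr3:4979187-4979208): tccaaCACGTGagactcatgtg
BHLHE41 (chr12:26125069-26125096): ggtacgttccgCACGTGagctgggtgct
PER2 (chr2:238288791-238288818): gcgcgcgcggtCACGTTttccactatgt
CRY1 (chr12:107093622-107093649): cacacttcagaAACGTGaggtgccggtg
CRY2 (chr11:45847276-45847303): cacatggtaggAACGTGagggggcgggc
CLOCK (chr4:55546103-55546130): caccactcgggCACGTTtggagcagcgc
NR1D1 (chr17:40100741-40100768): cgcaagagctcAACGTGccggctgttgg

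PER1 had its E-box 173 bases before its RefSeq start, in an intron of the longer PER1 transcripts. NR1D2 was the member with a pair of E-boxes, 155 and 105 bases before the second of its starts and inside an intron of the outer transcript. The E-box of BHLHE40 lay 245 bases before the start, near the far edge of the window, whereas that of BHLHE41 was 48 bases before it. Each was outside the annotated span of its own gene, and whether another gene covers either site was not examined.

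The E'-boxes of PER2, CRY2, CLOCK and NR1D1 lay 197, 188, 187 and 168 bases before a start, and that of CRY1 89. For CRY2 and CLOCK this was the second, inner start. How motif positions are spread over all windows was not examined. That of PER2 lay in an exon of an annotated transcript of the gene, and those of CRY2 and CLOCK in an intron. Those of CRY1 and NR1D1 lay outside the annotated span of their own gene. Whether another gene covers these sites was not examined. In all, 9 of the 10 genes held an E-box or E'-box in a window, which 14.5% of the 27305 symbols with windows did. The motifs contain CG, and 13 of the 14 windows of the clock genes had a GC content between 63.0% and 81.0%, which is at or above percentile 61.7 of all windows. The part of GC content in these counts was not tested. The first CRY2 window was the exception in GC, at 46.3%.

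PER3 instead held a D-box, TTATGTAA, the site of the DBP and NFIL3 family, 177 bases before its outer start. NR1D2 held the same D-box on the other strand, 194 bases before its second start. This motif was found in 2 of the 14 windows of the clock genes and in 0.886% of all windows. The related TTACGTAA lay across the PER2 start, from 3 bases before it, and was in 0.125% of all windows. The stretches of PER3 and NR1D2 are shown because PER3 was the gene with neither an E-box nor an E'-box.

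PER3 (chr1:7784103-7784132): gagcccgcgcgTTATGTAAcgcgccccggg
NR1D2 (chr3:23945916-23945945): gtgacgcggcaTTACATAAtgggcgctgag

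AGGTCA, the core of the element bound by the REV-ERB and ROR receptors, was found in both CRY2 windows and in the PER1 window, and in 13.8% of all windows. The CRE, TGACGTCA, was found in 0 of the 14 windows and in 1.85% of all windows. A match of letters in these windows is a description and not a bound site.

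**Figure D1:**
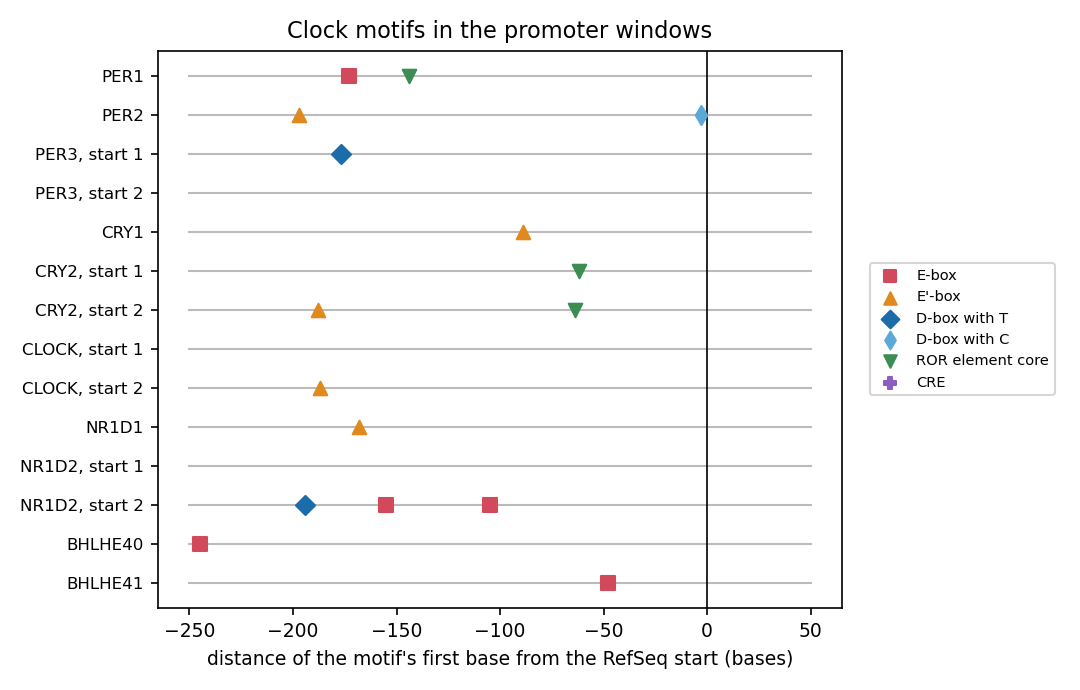
Positions of 6 motifs in the 14 promoter windows of the clock genes. The x axis is the distance in bases of the first base of each motif from the RefSeq start, at 0, and genes with 2 starts have 2 lines. All but the PER2 D-box lie wholly before the start, and 4 of the 5 E'-boxes lie between 197 and 168 bases before it. For CRY2 and CLOCK the E'-box is placed from the second start.

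The clock genes differed widely in their mean level. To compare genes, the authors' mean log2 CPM was divided by gene length, as log2 CPM less log2 of the deposited length in kilobases. On this scale NR1D2, CRY1, BHLHE40 and CLOCK were above the median of all 13957 genes, which was 2.43, and PER3, NR1D1, CRY2, BHLHE41, PER1 and PER2 were below it. The 10 genes had a median of 1.46, and they ranged from -0.26 for PER2 to 3.89 for NR1D2. Their CPM summed to 328. In bulk RNA, a gene expressed in few cells and a gene expressed weakly in every cell cannot be told apart.

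**Figure D2:**
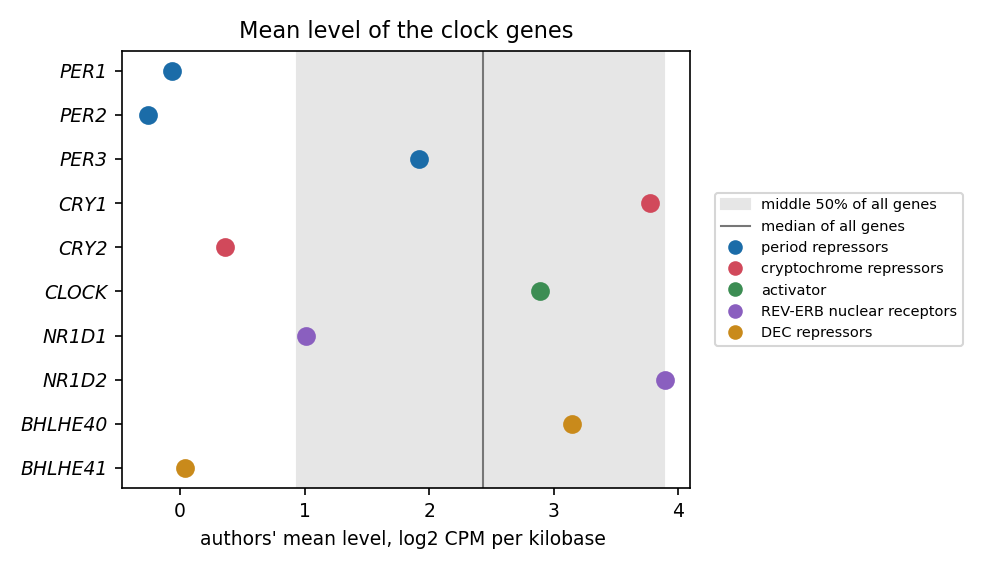
Authors' mean level of each clock gene as log2 CPM per kilobase (x axis), coloured by role, with 1 point per gene and no error, as the table gives none per library. The grey band spans the middle 50% of all 13957 genes and the line is their median, 2.43. CRY1 and NR1D2 sit near the upper edge of the band, and PER1, PER2, CRY2 and BHLHE41 lie below its lower edge.

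The period genes encode the scaffold proteins of the repressor complex, and all 3 were below the median of the table. PER1 (chromosome 17, 8140472 to 8156506, minus strand, GRCh38) had a mean level of 2.74 log2 CPM, or 6.69 CPM. Over its 7002 bases this was -0.07 log2 CPM per kilobase, at percentile 12.5 of all genes.

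PER2 (chromosome 2, 238244044 to 238290102, minus strand) had 2.52 log2 CPM, or 5.75 CPM. This was -0.26 per kilobase on the log2 scale, the lowest of the 10 genes, at percentile 10.8. The longest stretch of identical bases between the canonical PER1 and PER2 transcripts was 30 bases, shorter than a read.

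PER3 (chromosome 1, 7784320 to 7845177, plus strand) stood apart from the other period genes. It had 4.93 log2 CPM, or 30.6 CPM, and 1.92 log2 CPM per kilobase, at percentile 40.9. Per kilobase it was 3.95-fold above PER1 and 4.51-fold above PER2. On the opposite strand GENCODE places UTS2, whose exons share 868 bases with those of PER3 and which was not analysed here.

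The cryptochromes are the main repressors of CLOCK and BMAL1, and their levels were far apart. CRY1 (chromosome 12, 106991364 to 107093549, minus strand) had 6.03 log2 CPM, or 65.4 CPM, and 3.77 log2 CPM per kilobase, at percentile 73.5. CRY2 (chromosome 11, 45847118 to 45883248, plus strand) had 2.99 log2 CPM, or 7.95 CPM, and 0.36 log2 CPM per kilobase, at percentile 17.5.

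Per kilobase, CRY1 was 10.7-fold above CRY2. The proteins are of similar size, with 586 and 593 residues in the canonical transcripts. Their transcripts shared at most 20 identical bases in a row.

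CLOCK (chromosome 4, 55427903 to 55546909, minus strand), the histone acetyltransferase and DNA-binding activator of the loop, had 6.42 log2 CPM, or 85.5 CPM. As its deposited length was the greatest of the members, at 11533 bases, the level per kilobase was 2.89 on the log2 scale, at percentile 58.4. TMEM165, on the opposite strand, covers 21.4% of the CLOCK gene and had 7.03 log2 CPM, but the exons of the 2 genes share 76 bases.

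The REV-ERB receptors bind haem and repress transcription, and they differed in the same way as the cryptochromes. NR1D2 (chromosome 3, 23945286 to 23980617, plus strand), which encodes REV-ERBβ, had the highest level of the members, with 6.42 log2 CPM, 85.8 CPM and 3.89 log2 CPM per kilobase, at percentile 75.1. NR1D1 (chromosome 17, 40092793 to 40100589, minus strand), which encodes REV-ERBα, had 2.41 log2 CPM, 5.30 CPM and 1.01 log2 CPM per kilobase, at percentile 26.1. The NR1D2 level per kilobase was 7.36-fold that of NR1D1, and without length scaling it was 16.2-fold, as the deposited length of NR1D1 is shorter.

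The 3′ end of NR1D1 overlaps that of THRA, the thyroid hormone receptor α gene, on the opposite strand. Their exons share 473 bases of the 2630 bases of NR1D1, and THRA had a mean level of 4.54 log2 CPM, 4.40-fold the CPM of NR1D1. The libraries were stranded, but whether strand was used in counting is not given in the sources used here, so reads from the shared bases cannot be told apart and the level of NR1D1 is uncertain. NKIRAS1 overlaps the first 1306 bases of NR1D2 on the opposite strand, with 0 exonic bases shared. At least 1 base of overlap with another gene of the table was found for 3 of the 10 clock genes and for 31.6% of all genes.

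BHLHE40 and BHLHE41 encode DEC1 and DEC2, basic helix-loop-helix repressors that occupy E-boxes. BHLHE40 (chromosome 3, 4979437 to 4985323, plus strand) had 4.96 log2 CPM, or 31.2 CPM, and 3.15 log2 CPM per kilobase, at percentile 62.9. BHLHE41 (chromosome 12, 26120030 to 26125037, minus strand) had 1.99 log2 CPM, or 3.96 CPM, and 0.04 log2 CPM per kilobase, at percentile 13.6. Per kilobase BHLHE40 was 8.63-fold above BHLHE41. Antisense transcripts of BHLHE40-AS1 share 451 exonic bases with BHLHE40, and those of SSPN share 162 with BHLHE41, and neither of these 2 genes was analysed here.

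In each of the CRY, REV-ERB and DEC pairs, then, a gene above the median of the table stood beside one below it. From the highest level per kilobase to the lowest, the order was NR1D2, CRY1, BHLHE40, CLOCK, PER3, NR1D1, CRY2, BHLHE41, PER1 and PER2. As the spread between libraries is unknown, it cannot be said which neighbours in this order differ. The smallest distances were those of BHLHE41 and PER1 (0.10 on the log2 scale) and of NR1D2 and CRY1 (0.12), and the largest was that of CLOCK and PER3 (0.97).

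**Figure D3:**
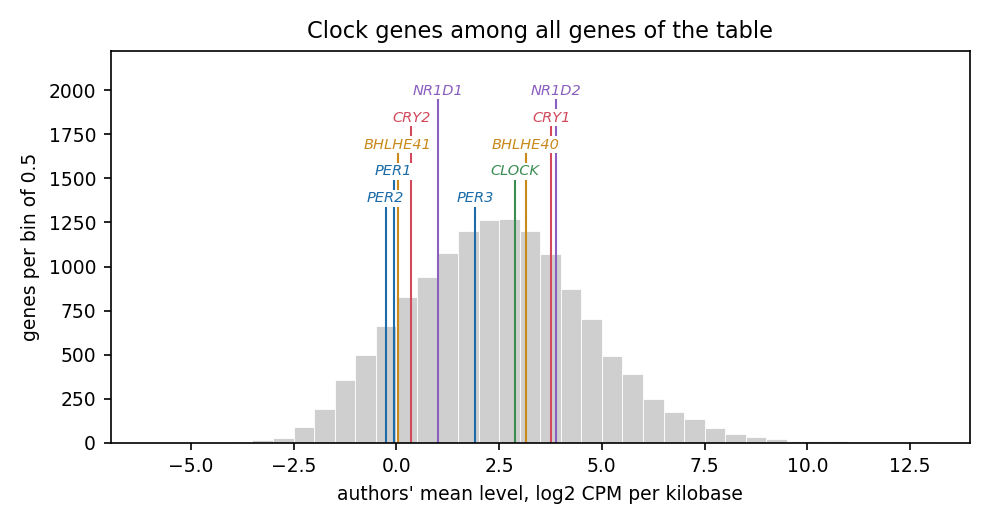
Histogram of the authors' mean level of all 13957 genes as log2 CPM per kilobase (x axis) in bins of 0.5, with the number of genes on the y axis. Vertical lines mark the clock genes, and their heights only separate the labels. PER1, PER2, BHLHE41 and CRY2 lie on the lower shoulder of the distribution, at or below percentile 17.5, and NR1D2 and CRY1 lie near its upper quartile.

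The rest of the pathway was described with a list of 46 other clock genes, of which 39 had a value, and 25 of these were above the median of the table. Among the partners of the activator, BMAL1, which the table lists as ARNTL, had 1.98 log2 CPM and -0.82 log2 CPM per kilobase, at percentile 6.19. Per kilobase BMAL1 was below every one of the 10 clock genes. Without length scaling it was nearly level with BHLHE41, at 1.98 and 1.99 log2 CPM. BMAL2, the relative of BMAL1 listed as ARNTL2, had 3.74 log2 CPM per kilobase, at percentile 72.9. NPAS2, which can take the place of CLOCK, had 2.87, close to the 2.89 of CLOCK itself.

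The D-box factors were also low. DBP, an activator whose own gene is a classical E-box target, had -1.41 log2 CPM per kilobase, at percentile 2.78, and TEF had 0.43. NFIL3, the repressor at the same sites, had 1.76. HLF, CIART, USP2, FBXL21P and the receptor genes RORA and RORB were not analysed here.

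The genes that modify the clock proteins or form complexes with them were higher, and most have general functions outside the clock. Of 13 kinase and phosphatase genes, 9 were above the median, among them CSNK1D and CSNK1E, kinases that mark the PER proteins for decay, with 3.60 and 3.12 log2 CPM per kilobase. BTRC and FBXW11, which direct the breakdown of the PER proteins, had 1.81 and 3.78. All 9 partners of the repressor complex with a value were above the median, from 2.47 for SIRT1 to 6.82 for NONO. All 4 coactivator genes (CREB1, CREBBP, EP300 and KAT2B) were below it, between 1.70 and 2.39.

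**Figure D4:**
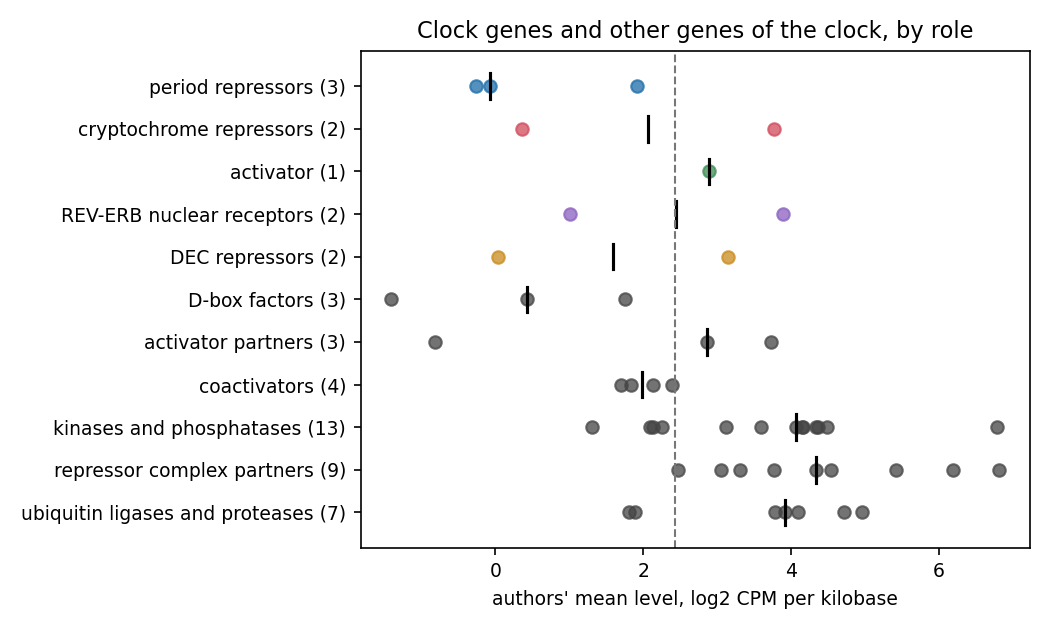
Authors' mean level as log2 CPM per kilobase (x axis) for the 10 clock genes, in colour, and 39 other clock genes, in grey, grouped by role with the number of genes in brackets. Short black lines are group medians and the dashed line is the median of all genes, 2.43. DBP, TEF and BMAL1 lie to the left with PER1 and PER2, whereas the D-box factor NFIL3, at 1.76, lies nearer the dashed line. The complex partners lie to the right of the dashed line.

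The 3′ untranslated regions of the clock genes were compared next, since AU-rich elements in this region are known sites of mRNA decay factors. The canonical transcripts of the 10 genes had a median 3′ region of 2184 bases, against 1370 for 11582 protein-coding genes of the table, from 290 for NR1D1 to 7512 for CLOCK. The pentamer ATTTA was present in 9 of the 10 and in 73.8% of those genes. BHLHE40 had 0 copies in 1631 bases. CLOCK had 26 copies in its 7512 bases, or 3.46 per kilobase (percentile 78.4), and NR1D2 had 14, or 4.38 per kilobase (percentile 87.5). The median of the protein-coding genes was 1.74 per kilobase. By density NR1D1 was the highest, with 2 copies in its short region, or 6.90 per kilobase, at percentile 96.8. The nonamer TTATTTATT was found once in each of PER1 and CLOCK, and in 9.84% of the protein-coding genes. Both sites are shown on the strand of the gene.

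PER1 (chr17:8140707-8140735): ggggctgcacTTATTTATTgcggggagac
CLOCK (chr4:55433061-55433089): tgtgcctcatTTATTTATTggcaatacct

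The cell label was checked with markers. Of 10 genes listed for MDA-MB-231, 9 had a value and 8 were in the top 25% of levels per kilobase, led by AXL and LGALS1, and ZEB1 was at percentile 48.2. Of the luminal markers, 9 had a value and 4 were also in the top 25%: the keratin genes KRT8, KRT18 and KRT19, and TFF1 at percentile 91.7. ERBB2 and GATA3 were at percentiles 62.6 and 55.4, and EPCAM, CDH1 and FOXA1 at 49.3, 26.9 and 15.6. The oestrogen and progesterone receptor genes ESR1 and PGR and the blood cell markers gave no value here. SPARC, from the MDA-MB-231 list, and the fibroblast gene COL3A1 gave none either. The fibroblast genes COL1A1 and PDGFRB were at or below percentile 18.5.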

How the data were processed

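In the study's methods, rsubread made the counts, on GRCh38.p13. The submitters' processing notes instead list hg38, TopHat, HTSeq, DESeq and Cufflinks, with no role. The authors' deposited table gives 1 mean log2 CPM per gene over the libraries, with a gene length. How this mean was scaled, which genes were filtered and the depth of each library are not given in the sources used here. The remaining columns (fold change, F statistic, p-values) hold the authors' comparison and were not used. The table has 0 columns per sample, so the planned count test could not be run. Its levels were divided by the deposited length. Percentiles were taken over all genes. Gene models were from GENCODE release 44, and promoter sequences from RefSeq. Motifs were searched on both strands, overlaps included. The functions were tested on simulated data. The clock genes, the lists and the motifs were chosen with earlier results of these data known. The genes named are the 10 clock genes, those on the fixed lists and genes overlapping a clock gene. UTS2, BHLHE40-AS1 and SSPN come from GENCODE. The 3′ region was examined after the levels were seen. Python 3.11.15, numpy 2.4.6, pandas 2.3.3 and matplotlib 3.10.9 were used.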

Additional observations from a re-analysis of the deposited data

How the results depend on the processing

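Of the 10 clock genes, 4 were above the median level per kilobase, and between 3 and 5 were under the other settings. Without length scaling PER3 joined them. Among genes above the lowest 25% of levels 6 of the 10 were kept and CLOCK fell below the median. BHLHE41, NR1D1, PER1 and PER2 were removed by this filter. The order of the genes depended on length: without length scaling 2 genes kept their place, and with the longest annotated transcript as length 6 did. NR1D2 and CRY1 changed places in the latter, and BHLHE41 became the lowest in the former. Over all settings the percentile of CRY2 ranged from 3.93 to 26.3, that of CLOCK from 46.3 to 80.7 and that of PER3 from 25.8 to 55.9. PER1 and PER2 had no percentile in the filtered setting. Over the other settings PER1 ranged from 11.5 to 23.5 and PER2 from 7.60 to 20.7, both being highest without length scaling. The pair of related genes farthest apart was CRY1 and CRY2 per kilobase, NR1D2 and NR1D1 without length scaling (16.2-fold), and BHLHE40 and BHLHE41 with the longest transcript as length (9.35-fold, against 9.02-fold for CRY1 and CRY2). With the E-box and E'-box counted together, 9 genes held a motif in place of 4, as follows from the wider search. With only the bases before the start the E-box count was 4. Overlap with another gene of the table was 3 of 10 in each setting. No paired analysis was possible because the table has no values per library, and for the same reason other normalizations, count filters and fits without a replicate were not run. The depth behind each level is unknown.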
